A study of Mus musculus with 6 samples.

Results

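The genes described here are Slc2a1, which encodes the glucose transporter GLUT1, and Hk2, Pfkl, Aldoa, Gapdh, Pgk1, Pgam1, Eno1, Pkm and Ldha, which encode enzymes that carry glucose to lactate. They were taken by symbol, 10 of the 55254 gene symbols in the count table, and each stands for its transcript with the most reads on average. All 10 had counts and all 10 passed the filter on low counts. Pfkl only just did so, with 3 to 17 reads in a library. Cell surface transporters bring glucose into the cell, and the enzymes of glycolysis split it in steps that yield ATP and pyruvate, which Ldha reduces to lactate. Macrophages that meet bacterial lipopolysaccharide (LPS) are known to lean on this pathway, and Slc2a1, Hk2 and Ldha are textbook targets of the hypoxia-inducible factor HIF1A.

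RNA came from bone marrow derived macrophages (BMDMs) of C57BL/6J mice, which are cells grown from the marrow of young adult mice for 10 days in medium conditioned by L929 cells, a source of the macrophage growth factor. All cultures received 100 ng/ml LPS for 4 hrs, and none was left without LPS, so no response to LPS could be measured. The 3 control libraries carried the genotype hnRNPDfl/fl, whose hnRNPD gene has loxP sites around exons 3 and 4 that are not cut. The 3 M-Δx3,4 libraries carried LysCre+hnRNPDfl/fl, the same floxed alleles with Cre driven by the lysozyme M gene, which removes those exons in myeloid cells. The gene encodes AUF1, an RNA-binding protein known for its binding to AU-rich elements in 3′ UTRs. Reads were taken from the 3′ ends of mRNAs, and no untreated or Cre-only cultures were analysed here. Nothing in the sources used here says that each library came from a separate mouse, so every p-value measures only the spread between these libraries.

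The hnRNPD transcript ENSMUST00000072750 had 177.8, 104.2 and 69.6 normalized counts in the controls against 52.8, 12.6 and 16.0 in the M-Δx3,4 libraries, so every M-Δx3,4 library was below every control library. Its log2 fold change was -2.11 (standard error 0.54), and its adjusted p was 0.984 by edgeR. An adjusted p of that size therefore did not set even the targeted gene apart. Counts from 3′ ends do not separate the splice isoforms of AUF1. Summed counts were 5852374 to 9008878 per library. The 8 macrophage markers (Adgre1, Csf1r, Cd68, Itgam, Lyz2, Cd14, Fcgr1 and Mertk) summed to 6451.6–7034.1 normalized counts in the controls and to 5413.5–7072.1 in M-Δx3,4, and the 5 genes of the LPS response (Tnf, Il6, Il1b, Nos2 and Cxcl10) to 11815.9–13774.1 and 11987.4–13796.9. Of these markers Lyz2, the gene of lysozyme M whose promoter drives the Cre, did not overlap between the groups, with 1992.1, 1788.0 and 2200.8 in the controls and 1342.0, 881.7 and 968.2 in M-Δx3,4. Its log2 fold change was -0.91 (standard error 0.30, unadjusted p = 0.0089 and adjusted p = 0.984 by edgeR), and it passed the threshold, explained with the comparison below, only without M-Δx3,4 replicate 1 (-1.11). Over all genes tested, 8.44% had groups that did not overlap. Cre and the loss of the exons came together in M-Δx3,4, so their parts in the Lyz2 difference cannot be told apart. Other cell types were also represented: B cell markers summed to 299.9–358.5 in control and 141.8–164.3 in M-Δx3,4 and did not overlap, mostly through Igkc. Neutrophil markers ran from 167.6 to 527.7 in control and from 321.0 to 443.8 in M-Δx3,4, with Elane at 0. T cell markers ran from 5.8 to 37.2 and from 10.8 to 24.3, with Cd3e and Cd3g at 0, and fibroblast markers from 1.2 to 43.0 and from 1.9 to 28.4. Control replicate 3 stood apart, since 6 liver genes (Alb, Apoa1, Ttr, Fabp1, Cyp3a11 and Cps1, a list added after the data were seen) summed to 578.9 normalized counts there, to 0 in the other controls and to at most 2.0 in M-Δx3,4. Their part in the results below was not tested.

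AUF1 is known for AU-rich elements, so the 3′ UTRs of the 10 transcripts in GENCODE vM21 (GRCm38, which UCSC calls mm10) were searched on the sense strand for the pentamer ATTTA. It was found in 5 of the 10 UTRs and in 6875 of the 10093 UTRs of genes tested (68.1%). The UTRs of these 10 genes were also shorter, with a median of 713 bases against 1170. Hk2 held 7 copies in 2285 bases, Pfkl 3 in 1263, Slc2a1 and Pgk1 2 each in 1537 and 908 bases, and Aldoa 1 in 185. The UTRs of Gapdh (178 bases, transcript ENSMUST00000073605), Pgam1, Eno1, Pkm and Ldha held none. The longer nonamer TTATTTATT, which holds the pentamer, was found in Hk2 alone among the 10 and in 7.34% of the genes tested. One site is shown for each gene with a pentamer, as mRNA sense DNA with ATTTA in capitals, and the Hk2 site is the one inside the nonamer. The sites lie on mm10 at chr6:82725901-82725929 (Hk2, minus strand), chr10:77987797-77987825 (Pfkl, minus strand), chr4:119137184-119137212 (Slc2a1, plus strand), chrX:106203502-106203530 (Pgk1, plus strand) and chr7:126795234-126795257 (Aldoa, minus strand). Finding these letters does not show that AUF1 binds there.
Hk2: tttatacgagttATTTAttccagactgtt
Pfkl: atagtttgtttaATTTAtataagtacact
Slc2a1: tagatggaagatATTTAtatattttttgg
Pgk1: tagagggcgtctATTTAtattctgcctga
Aldoa: caataaacaactATTTAaggggga

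Normalized counts are the counts divided by 1 size factor per library, so that libraries of different depth can be set side by side. The groups were set against each other with the quasi-likelihood test of edgeR, and p-values were adjusted by Benjamini and Hochberg's method over 32475 transcripts. A gene was said to pass the threshold of the study when its unadjusted p was under 0.05 and its absolute log2 fold change at least 1. None of the 10 glycolysis genes passed it, and none had an unadjusted p under 0.05. Among all 11873 genes tested, 364 (3.07%) passed the threshold and 472 (3.98%) had an unadjusted p under 0.05. With 10 genes, a count of 0 is near that background. DESeq2 and limma-voom also gave 0 of the 10 past the threshold and 0 with an unadjusted p under 0.05. The adjusted p from edgeR was 0.984 for each of the 10 except Pgk1 (0.998), and the smallest over all transcripts was 0.824. The groups overlapped for every one of the 10. Of all genes tested, 1002 (8.44%) had groups that did not, and with 10 genes a count of 0 is near that share too. The median log2 fold change of the 10 was -0.26, with 3 higher and 7 lower, against -0.01 over all genes tested. It moved to -0.01 when control replicate 3 was left out.

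**Figure D1:**
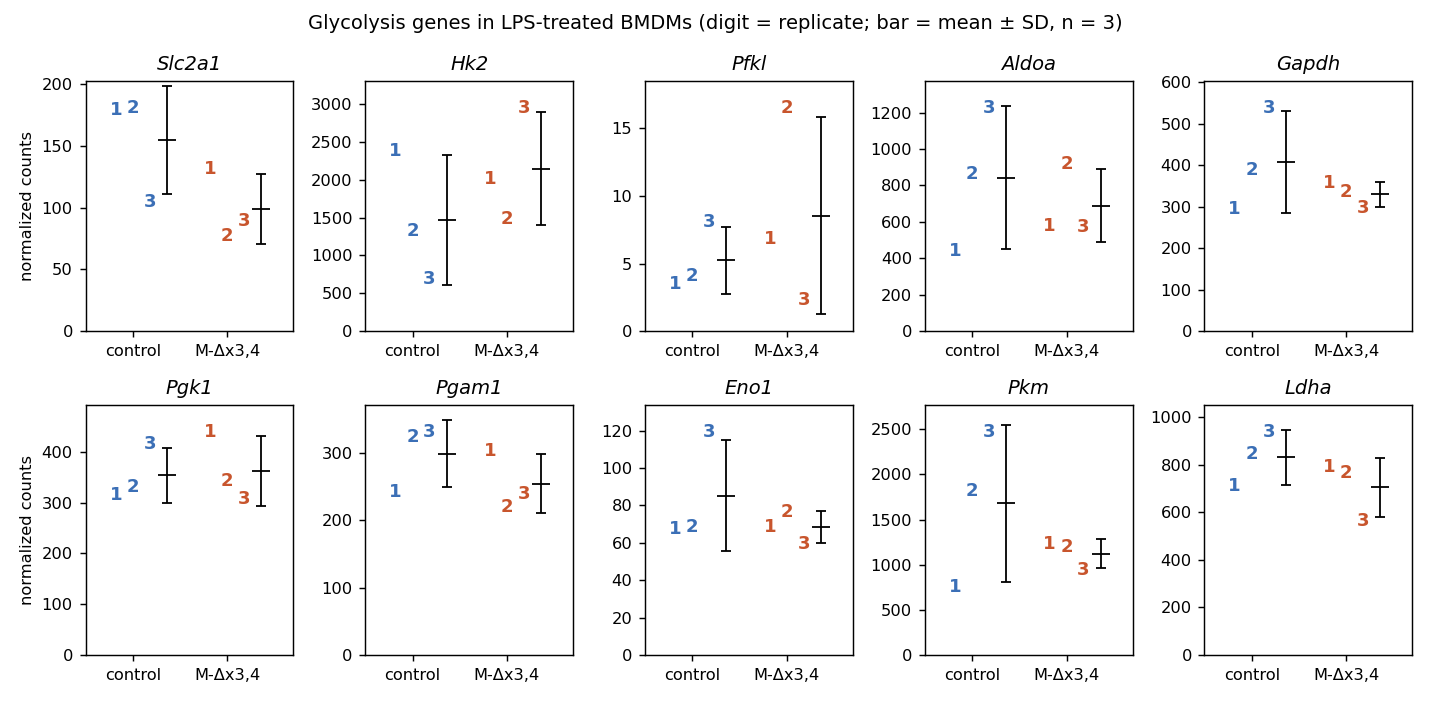
Normalized counts (vertical axes, each from 0) of the 10 genes in the 3 control (blue) and 3 M-Δx3,4 (orange) libraries. Each digit is 1 library by its replicate number, and the black bar is the mean with its SD (n = 3). The groups overlap in every panel, and control 1 and control 3 mark the ends of the control range for all genes but Slc2a1.

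Slc2a1 (ENSMUST00000030398, counted over the 3′ end at chr4:119136447-119138232) had 179.0, 180.8 and 104.4 normalized counts in the controls against 131.1, 76.7 and 89.4 in the M-Δx3,4 libraries. Control replicates 1 and 2 lay above every M-Δx3,4 library, and control replicate 3 lay among them. The means were 154.7 ± 43.6 and 99.1 ± 28.4 (SD, n = 3), a log2 fold change of -0.64 with a standard error of 0.37 (exact permutation test, two-sided, p = 0.2; 3 against 3 cannot give less than 0.1). Without control replicate 3 it was the only one of the 10 whose unadjusted edgeR p was under 0.05, but it did not reach a log2 fold change of -1 in any fit that left out a library (-0.90 to -0.49).

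Hk2 (ENSMUST00000000642, chr6:82724776-82727309), the inducible hexokinase that traps glucose as glucose-6-phosphate, had 2385.0, 1318.0 and 693.8 normalized counts in the controls against 2015.0, 1478.9 and 2948.3 in the M-Δx3,4 libraries. Control replicate 1 was the second highest of all 6, so the groups overlapped although the lowest pair of libraries were both controls. The log2 fold change was 0.55 (standard error 0.41; means 1465.6 ± 855.2 and 2147.4 ± 743.6, SD, n = 3; exact permutation test, two-sided, p = 0.4). Left out one at a time, the libraries gave values from 0.22 to 1.10. The upper end came without control replicate 1, when Hk2 passed the threshold (unadjusted p = 0.00683 and adjusted p = 0.195 by edgeR). Over all alternatives its adjusted p lay between 0.195 and 1.0. In that fit 1267 of 11369 genes (11.1%) passed it too. Hk2 is the gene of the 10 with the most ATTTA pentamers and the one with the nonamer. Its UTR is also the longest of the 10 (2285 bases), and a link between these motifs and its level was not tested.

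Pfkl (ENSMUST00000020522, chr10:77986698-77988209), the liver-type subunit of phosphofructokinase, which commits the sugar to glycolysis, was close to the limit of detection. The control libraries held 3, 4 and 7 reads and the M-Δx3,4 libraries 7, 17 and 3. M-Δx3,4 replicate 2 alone stood out, and the log2 fold change of 0.68 (standard error 0.83) turned to -0.21 without it. With all libraries, the standard error exceeded the log2 fold change itself. Low counts of Pfkl do not stand for the whole step. Pfkp, another phosphofructokinase gene, had a mean of 77.4 normalized counts over the 6 libraries against 6.9 for Pfkl. The log2 fold change of Pfkp was -0.11 (standard error 0.36), and it was named with its values known.

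Aldoa (ENSMUST00000032934, chr7:126794985-126795418), the aldolase that splits the phosphorylated sugar, had 439.3, 862.3 and 1226.3 normalized counts in the controls against 575.2, 920.5 and 574.7 in the M-Δx3,4 libraries. The lowest and the highest library were both controls, with the M-Δx3,4 libraries between them. The log2 fold change was -0.29 (standard error 0.38; exact permutation test, two-sided, p = 0.7) and became 0.10 without control replicate 3. Over its 5 other transcripts with a mean above 10 normalized counts it ran from -0.70 to -0.29.

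Gapdh (ENSMUST00000183272, chr6:125161815-125162063), which reduces NAD+ in the first step that yields energy, had 295.2, 388.2 and 538.3 normalized counts in the controls against 357.0, 335.0 and 297.3 in the M-Δx3,4 libraries. The M-Δx3,4 libraries lay close together inside the control range, at 329.8 ± 30.2 against 407.3 ± 122.7 (SD, n = 3). The log2 fold change was -0.30 (standard error 0.33; exact permutation test, two-sided, p = 0.5). Over its other transcripts with a mean above 10 normalized counts, it ran from -0.30 to -0.15. The counted region lies opposite 217 bases of Iffo1, which had 26 counts in all. Gapdh is often used to normalize qRT-PCR, and in these libraries its control values differed 1.82-fold.

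Pgk1 (ENSMUST00000135949, chrX:106200129-106203910, in 4 segments), which makes ATP from 1,3-bisphosphoglycerate, had 315.0, 330.0 and 416.5 normalized counts in the controls against 440.2, 342.8 and 306.4 in the M-Δx3,4 libraries. The highest and the lowest library were both M-Δx3,4. The means of 353.8 ± 54.8 and 363.1 ± 69.1 (SD, n = 3) gave a log2 fold change of 0.04 (standard error 0.31), which lay on either side of 0 as libraries were left out (-0.13 to 0.18).

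Pgam1 (ENSMUST00000011896, chr19:41917776-41918909), the mutase that shifts the phosphate group, had 241.8, 323.9 and 331.8 normalized counts in the controls against 303.2, 219.5 and 239.2 in the M-Δx3,4 libraries. Control replicate 1 lay with the lower M-Δx3,4 libraries. Its log2 fold change was -0.24 (standard error 0.32; exact permutation test, two-sided, p = 0.2), and it stayed below 0 with each library left out (-0.38 to -0.14).

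Eno1 (ENSMUST00000080149, chr4:150248556-150249122), the enolase of most cells, had 67.4, 68.5 and 119.5 normalized counts in the controls against 68.5, 76.7 and 59.6 in the M-Δx3,4 libraries. Only control replicate 3 stood apart, and without it the log2 fold change moved from -0.32 (standard error 0.38) to 0.02. Reads of Eno1 cannot be assigned with certainty, because its near-identical copy Eno1b had 43, 55 and 75 reads in control and 47, 67 and 66 in M-Δx3,4 libraries, close to the 58, 67 and 103 and the 70, 79 and 78 of Eno1. Copies of the other genes took fewer reads. Of 16 such copies looked for, 5 could be tested and none passed the threshold, with log2 fold changes from -0.86 to -0.22.

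Pkm (ENSMUST00000034834, chr9:59678835-59679624), the pyruvate kinase gene, had 752.0, 1821.7 and 2475.8 normalized counts in the controls against 1234.4, 1194.4 and 937.7 in the M-Δx3,4 libraries. All M-Δx3,4 libraries lay between control replicate 1 and control replicate 2. The means were 1683.2 ± 870.2 and 1122.2 ± 161.0 (SD, n = 3), a log2 fold change of -0.59 (standard error 0.38; exact permutation test, two-sided, p = 0.4). Leaving out control replicate 1 gave -0.94 and leaving out control replicate 3 gave -0.19. Another Pkm transcript held the same counts in every library, so the M1 and M2 isoforms of the enzyme, which differ in an internal exon, could not be told apart from these 3′ ends.

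Ldha (ENSMUST00000005051, chr7:46855142-46855875), the lactate dehydrogenase subunit that regenerates NAD+, had 709.0, 846.0 and 939.7 normalized counts in the controls against 789.4, 763.2 and 561.7 in the M-Δx3,4 libraries. The highest pair of libraries were controls and the lowest was M-Δx3,4 replicate 3, with the others mixed. The log2 fold change was -0.24 (standard error 0.30; exact permutation test, two-sided, p = 0.3) and stayed below 0 with each library left out (-0.34 to -0.10).

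**Figure D2:**
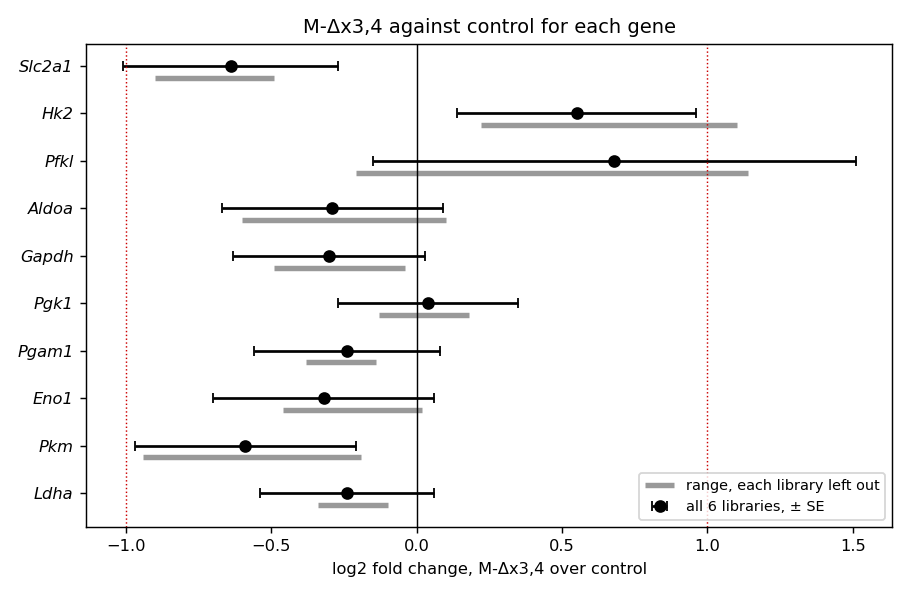
Log2 fold change of M-Δx3,4 over control for each of the 10 genes (points, with bars of 1 standard error, from edgeR's quasi-likelihood fit of 6 libraries) and the range when each library was left out (grey bars). The dotted lines mark -1 and 1. The points run from -0.64 for Slc2a1 to 0.68 for Pfkl, and the grey bars of Pfkl, Aldoa, Pgk1 and Eno1 cross 0.

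The 10 genes summed to 6128.3 ± 733.6 normalized counts in the controls and to 5787.2 ± 318.0 in M-Δx3,4 BMDMs (SD, n = 3). Without Hk2 the sums were 4662.7 ± 1585.4 and 3639.8 ± 495.3. Neither difference exceeded the replicate spread (p = 0.5 for both by a two-sided exact permutation test). In bulk RNA, fewer cells of a type and less RNA per cell cannot be told apart. Divided by the length of the counted region, the levels in control BMDMs were highest for Pkm (2130.6 ± 1101.5 normalized counts per kb), Aldoa (1941.6 ± 907.5), Gapdh (1635.6 ± 492.6) and Ldha (1132.9 ± 158.1). The ranges of mean ± SD of these 4 neighbours overlapped. Hk2 followed at 578.4 ± 337.5, then Pgk1 (305.8 ± 47.4), Pgam1 (263.8 ± 44.0), Eno1 (150.1 ± 52.5) and Slc2a1 (86.6 ± 24.4), and Pfkl was last at 3.5 ± 1.7. In M-Δx3,4 BMDMs Aldoa (1590.1 ± 459.8) came before Pkm (1420.5 ± 203.8), a difference within their SD, and the order was otherwise the same. With reads taken from 3′ ends, a longer region need not collect more reads, so this scale gives only a rough order between genes.

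Control replicates 1 and 3 marked the ends of the control range for all of these genes but Slc2a1. Of the 10, 8 were lowest among the controls in replicate 1 and highest in replicate 3. For Hk2 the order was the opposite, with 3.44 times as much in control replicate 1 as in control replicate 3, and for Slc2a1 the ratio was 1.71. For Pkm it was 0.304 and for Aldoa 0.358. The highest control exceeded the lowest 3.44-fold for Hk2, 3.29-fold for Pkm and 2.79-fold for Aldoa, and the median was 1.89-fold over 4723 genes with a mean above 50 normalized counts. Among the M-Δx3,4 libraries the same ratio was 1.99 for Hk2, 1.32 for Pkm and 1.60 for Aldoa, with a median of 1.51 over those genes. Pfkl, with few reads, varied more among the M-Δx3,4 libraries (7.2-fold against 2.33-fold among the controls), and Pgk1, Pgam1 and Ldha varied about equally in both groups (1.32-fold to 1.44-fold). Over the 6 libraries Hk2 ran against most of the others, with a Pearson r of -0.946 with Gapdh, -0.917 with Pkm and with Eno1, -0.906 with Aldoa and -0.889 with Ldha. It was 0.0779 with Slc2a1. These values describe 6 libraries of unequal depth from 2 groups and are no test.

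The difference between control replicates 1 and 3 went with base composition over all genes. From genes with 25–30% GC in the last 300 bases of the transcript to genes with 60–65%, the median of log2 (control 1 / control 3) went from 1.05 to -1.51. Pkm, with 55.0% GC, had -1.72 where its bin (55–60%) had a median of -1.05, and Aldoa, with 53.3%, had -1.48 where its bin had -0.60. Gapdh (54.7%, -0.86) and Eno1 (54.3%, -0.82) were nearer to that median but also below it. Pgk1 (44.7%, -0.40) and Pgam1 (44.7%, -0.46) lay below the 0.23 of their bin. Ldha (45.0%, -0.41) lay below -0.15, and Pfkl (52.7%, -1.02), with few reads, below -0.60. Hk2, at 40.3% GC, had 1.78 where its bin had 0.23, and Slc2a1, at 50.3%, had 0.77 where its bin had -0.60. These 2 genes were therefore farther to the control 1 side than the usual gene of their GC content. With the GC trend removed from every library, a setting added after the data were seen, none of the 10 passed the threshold and their median log2 fold change moved from -0.26 to -0.10. Pkm was then at -0.30, Aldoa at -0.06, Gapdh at -0.09 and Eno1 at -0.12, while Slc2a1 (-0.56) and Hk2 (0.50) moved less.

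**Figure D3:**
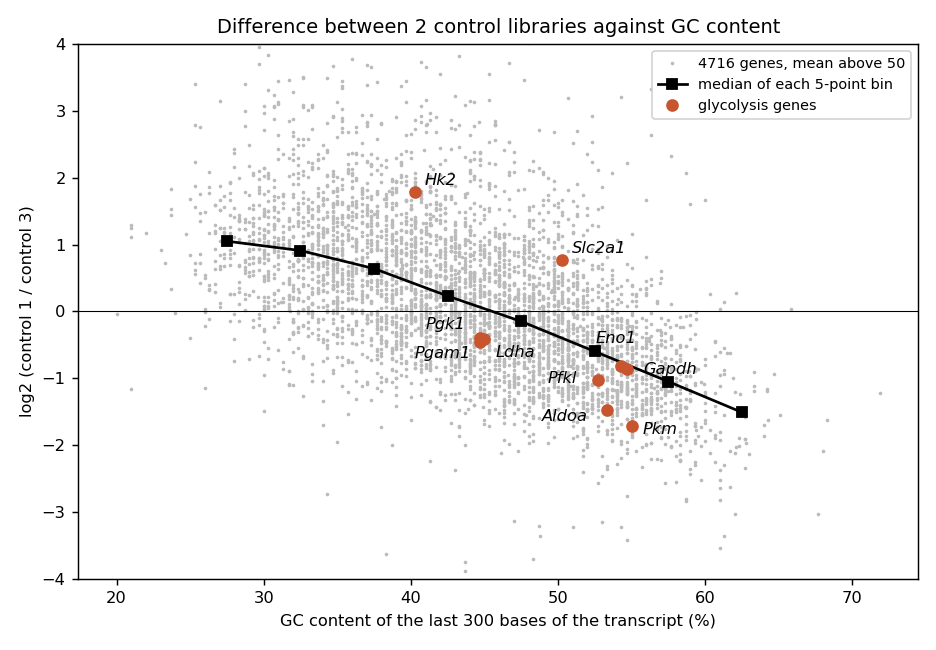
Log2 ratio of control replicate 1 over control replicate 3 (vertical axis, -4 to 4; 30 genes lie outside) against the GC content in percent of the last 300 bases of each transcript. Grey points are genes with a mean above 50 normalized counts, black squares are medians of bins of 5 percentage points, and orange points are the 10 glycolysis genes. The medians fall from 1.05 to -1.51, and Hk2 (1.78) and Slc2a1 (0.77) lie above them. The other glycolysis genes lie below, with Pkm (-1.72) and Aldoa (-1.48) the lowest.

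The genes whose 6 values were most like the mean pattern of the 10, among genes with a mean above 50 normalized counts, were Nrros, Ndufb2 (Pearson r = 0.989 for both), Ube2v1, Gm20431 (0.986 for both) and Arrdc1 (0.985). Nrros encodes a membrane protein of macrophages and microglia, and Ndufb2 a subunit of respiratory complex I. With only 6 libraries such values describe a shared pattern and nothing more.

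Of 17 other genes for glycolytic enzymes and their isozymes, 12 had enough reads for a test. The threshold was passed by none of them, and none had an unadjusted p under 0.05 by edgeR, and DESeq2 and limma-voom also put none past it. Of their log2 fold changes 3 were above 0 and 9 below, with a median of -0.10. The isozymes of other tissues had few or no reads, with Gapdhs and Pgam2 at 0 in every library. Pklr, the pyruvate kinase of liver and red cells, had 3 reads in control replicate 3, the library with liver transcripts, and 0 in every other. Gpi1, which makes fructose-6-phosphate, had 305.7, 557.8 and 853.9 normalized counts in the controls against 429.4, 591.4 and 404.3 in the M-Δx3,4 libraries (log2 fold change -0.27). Tpi1, which interconverts the triose phosphates, had 418.4, 781.6 and 852.7 against 539.0, 810.8 and 632.0 (-0.05). Both were lowest in control replicate 1 and highest in control replicate 3 of all 6 libraries, as were Aldoa, Gapdh and Pkm. Of the other hexokinases, Hk1 had 83.7, 104.2 and 84.7 normalized counts in the controls against 48.9, 65.1 and 65.7 in the M-Δx3,4 libraries, groups that did not overlap. Its log2 fold change was -0.60 (standard error 0.36, unadjusted p = 0.119 by edgeR). Hk3, a hexokinase known from myeloid cells, had a log2 fold change of -0.74 with overlapping groups, and passed the threshold only without M-Δx3,4 replicate 1. Hk1 and Pklr were named after their values were seen.

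Around glycolysis, none of the tested genes passed the threshold among regulators and transporters (12 of 15 tested, median log2 fold change -0.18), in the pentose phosphate pathway (7 of 7, -0.19) or in the oxidation of pyruvate (10 of 11, -0.07). None of them had an unadjusted p under 0.05 by edgeR with all libraries. With a library left out, Slc16a1 passed without control replicate 1, and Pdp1 without control replicate 1 or M-Δx3,4 replicate 1. Pfkfb3, which makes the allosteric activator of phosphofructokinase, was the most abundant regulator. It had 2511.7, 2113.9 and 2420.1 normalized counts in the controls against 2324.1, 1869.2 and 1983.1 in the M-Δx3,4 libraries, and its log2 fold change was -0.19 (standard error 0.28). Slc2a6, a glucose transporter of lysosomes, had -0.17, and Bsg, the chaperone of lactate transporters, -0.49. In the pentose phosphate pathway, which supplies NADPH, Pgd had 2852.2, 3795.6 and 3459.6 normalized counts in the controls against 2350.5, 2875.2 and 3057.6 in the M-Δx3,4 libraries. Its log2 fold change was -0.29, against -0.17 for Taldo1 and -0.49 for Pgls, each with overlapping groups. Where pyruvate enters the mitochondria to be oxidized, Pdha1 of the pyruvate dehydrogenase complex had a log2 fold change of 0.31, the citrate synthase gene Cs -0.28 and the phosphatase gene Pdp2 -0.08. Pdp1, the other phosphatase of that complex, had the highest value of the list at 1.17 (standard error 0.65, unadjusted p = 0.0909 by edgeR), with 13.9, 6.1 and 5.8 normalized counts in the controls against 5.9, 32.0 and 20.6 in the M-Δx3,4 libraries. Pdp1 and Slc16a1 were named with their values known.

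The hypoxia response shares its regulator with glycolysis, and 15 of its 17 genes on the list used here could be tested. Of these, 2 (Bnip3 and Ankrd37) rose past the threshold and none fell, with 13 log2 fold changes above 0, 2 below and a median of 0.22. Ankrd37 met the filter on low counts through M-Δx3,4 replicate 1 alone (11.7 normalized counts). It was therefore tested only because of a library in the group where it was higher. Over all genes tested 3.07% passed the threshold (131 higher and 233 lower), with 5877 values above 0 and 5996 below. Of the list none passed without control replicate 3 or without M-Δx3,4 replicate 1. Without control replicate 1, 3 passed higher (Bnip3, Ankrd37 and Vegfa) and 1 lower (Mif). In that fit 1267 of 11369 genes (11.1%) passed. Removing the GC trend gave a median of 0.11, leaving out control replicate 3 one of 0.10 and leaving out M-Δx3,4 replicate 3 one of 0.03. Bnip3, a mitochondrial protein of mitophagy, had 25.6, 29.6 and 16.2 normalized counts in the controls against 62.6, 54.4 and 38.2 in the M-Δx3,4 libraries, and every M-Δx3,4 library exceeded every control. Its log2 fold change was 1.11 (standard error 0.42, unadjusted p = 0.0196 and adjusted p = 0.984 by edgeR). It stayed at 0.91 or above with each library left out but no longer passed the threshold without control replicate 3, M-Δx3,4 replicate 1 or M-Δx3,4 replicate 2, nor with the GC trend removed (0.89). Ankrd37, an ankyrin repeat protein induced by hypoxia, had 1 read in all controls together and 12, 4 and 4 reads in the M-Δx3,4 libraries, at least 1.9-fold higher against a floor of 3 counts per library. It no longer passed without control replicate 2 or control replicate 3, nor could it be tested without M-Δx3,4 replicate 1 or under filterByExpr. Hif1a itself had overlapping groups and a log2 fold change of 0.30, and Mif, the other gene of this list with a large value, had -0.88 (unadjusted p = 0.0591 by edgeR). Hif1a, Mif and Vegfa were named after their values were seen.

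**Figure D4:**
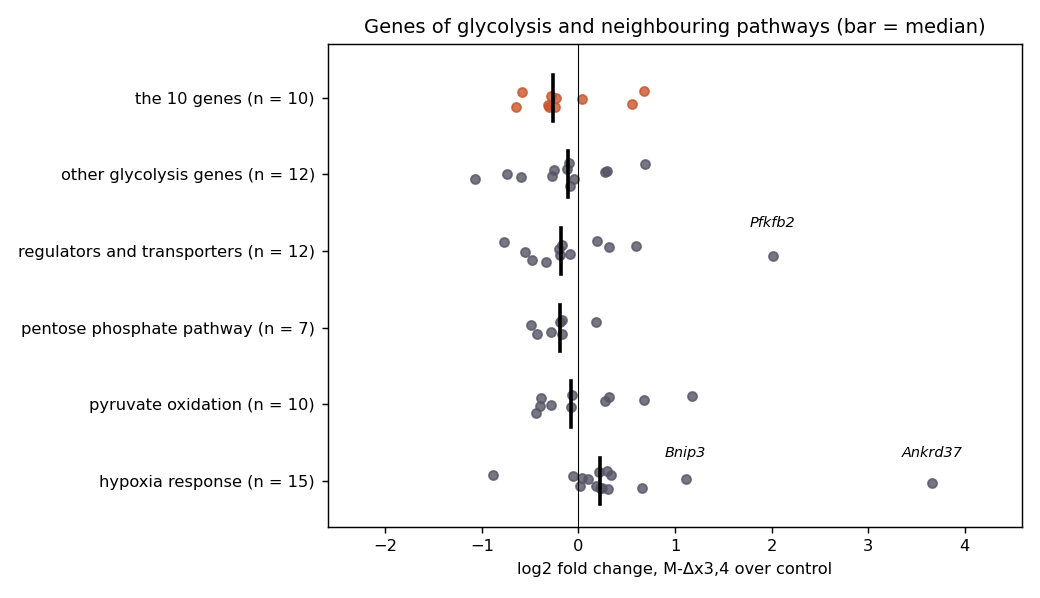
Log2 fold change of M-Δx3,4 over control (horizontal axis) for every tested gene of the 10 glycolysis genes (orange) and of 5 related lists (grey), with the median of each as a black bar. The medians lie between -0.26 for the 10 genes and 0.22 for the hypoxia response, and the far points (Pfkfb2 and Ankrd37) are genes with few reads in most libraries.

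The promoters of the 10 genes were searched for ACGTG, a form of the core of the hypoxia response element. Both strands were searched (CACGT where it lies on the opposite one), and no other form of the core was sought. The search used RefSeq windows of 250 bases before to 50 after each start site (GRCm38.p6). All 10 genes matched a window, and 8 of the 10 (80.0%) held the motif in at least 1 window, all but Eno1 and Pfkl. Over all genes it was 5886 of 27025 (21.8%). Counted by window, 9 of the 16 windows of the 10 genes held it, compared with 6447 of 32851 windows (19.6%). The share by gene was not matched for the number of windows per gene. This is a description without a test, and the windows were not matched for GC content. Windows of 4 genes follow, read along the gene with the motif in capitals, for the transporter, the first kinase, a mid-pathway kinase and the last enzyme. They lie at chr4:119108697-119108726 (Slc2a1, plus strand), chr6:82774489-82774518 (Hk2, minus strand), chrX:106186938-106186967 (Pgk1, plus strand) and chr7:46845647-46845676 (Ldha, plus strand). The first letter of the motif is 36, 52, 150 and 145 bases before the start site, in that order. The Ldha window holds CACGTG, in which the motif occurs on both strands.
Slc2a1: gtcccgccccggACGTGctccccaggcccc
Hk2: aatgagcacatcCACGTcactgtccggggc
Pgk1: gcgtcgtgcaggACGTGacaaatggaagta
Ldha: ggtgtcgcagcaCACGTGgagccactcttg
Of the 8 genes with the motif, Hk2 and Pgk1 had log2 fold changes above 0 (0.55 and 0.04). The others lay below 0: Slc2a1 (-0.64), Pkm (-0.59), Gapdh (-0.30), Aldoa (-0.29), Pgam1 (-0.24) and Ldha (-0.24). Of the genes without it, Eno1 had -0.32 and Pfkl 0.68. None passed the threshold, and a link between motif and direction was not tested.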

How the data were processed

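Control and M-Δx3,4 BMDMs were sequenced by the authors with a QuantSeq 3′ mRNA kit for Ion Torrent. The submitters' processing notes name TopHat2 2.1.1, Bowtie2 2.3.2, bedtools and DESeq2, with mm10. The deposited values used are raw counts per 3′ UTR region, made by the authors without normalization. A deposited table of the authors' own comparison (normalized values, fold changes, p-values) was not used, nor were 24 further columns of per-library values. How reads with several matches were treated is not given in the sources used here.

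Counts were summed per transcript (142567 transcripts). Libraries were scaled by edgeR's RLE factors, transcripts above the median normalized count (4.89) in at least 1 library were kept, and groups were compared in edgeR 4.0.16 (R 4.3.3) with its quasi-likelihood test, after the procedure had been tested on simulated data. The study combined several tests, for which edgeR stands here. Single genes had an exact permutation test, two-sided. Alternatives were TMM, library totals, DESeq2 1.42.0, limma-voom (limma 3.58.1), no filter, filterByExpr, 1 transcript per gene, the largest segment, a replicate block and each library left out. A GC correction was added after the data were seen. Depth was 5852374 to 9008878 summed counts, and limits from counts cover counting error only.

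Named by rule were the 10 genes, Hnrnpd, list genes past the threshold (or the 3 most abundant of a list) and the 5 genes of most similar pattern. The members and lists were chosen with earlier results of these data known. Some items, 2 genes of the list of other glycolysis genes among them, are not reported here. Plots used matplotlib 3.10.9.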

Additional observations from a re-analysis of the deposited data

How the results depend on the processing

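Across all alternatives run, 152 of the log2 fold changes recomputed for the 10 genes kept their direction and their side of the threshold. Another 6 reversed, and 1 became stronger (Hk2 without control replicate 1). The counts and medians below are outside this tally. The number of the 10 genes past the threshold was 0 in every fit with all libraries (Pfkl could not be tested under filterByExpr) and 0 to 1 with each library left out, the 1 being Hk2 without control replicate 1. Without control replicate 1 Pkm also had an unadjusted p under 0.05 by edgeR. With single libraries left out, their median log2 fold change lay between -0.41 and -0.01. Signs turned for Pgk1 (-0.13 to 0.18), Aldoa (-0.60 to 0.10), Eno1 (-0.46 to 0.02) and Pfkl (-0.21 to 1.14). The number of other glycolysis genes past the threshold was 0 in every fit with all libraries and 0 to 1 with each library left out, the 1 being Hk3 without M-Δx3,4 replicate 1. Whether the replicate numbers mark pairs of libraries could not be decided from the counts. The deviations of same-numbered libraries from their group means had correlations of -0.213, 0.537 and -0.309. Only control replicate 2 correlated best with its own number, while control replicate 1 did so with M-Δx3,4 replicate 3 (0.542) and control replicate 3 with M-Δx3,4 replicate 1 (0.28). With the replicate block, 0 of the 10 passed, and the number of transcripts past the threshold went from 1071 to 685. That number was 704 with DESeq2, 1715 with no filter, 471 with filterByExpr, 365 with 1 transcript per gene (fewer were tested) and 710 to 3224 with each library left out, 3224 being without control replicate 1, when 40.2% were lower in place of 62.1%. The cause was not tested. No transcript had an adjusted p under 0.05 by edgeR with all libraries and the filter, against 118 with no filter, 4 by DESeq2 and 55 without control replicate 1.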
